A study of Homo sapiens with 9 samples.

Results

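The genes described here were 10 members of the insulin-like growth factor (IGF) axis: the binding proteins IGFBP2, IGFBP3, IGFBP4, IGFBP5, IGFBP6 and IGFBP7, the ligand IGF2, and the receptors IGF1R, IGF2R and INSR. They were chosen by name, and all 10 were found among the 31589 genes in the tables of the series. Messenger RNA was measured by bulk RNA sequencing of whole spinal cord organoids (SCOs), which are clusters of neural tube-like tissue grown from the WTC line of human induced pluripotent stem cells. The 9 libraries fell into 3 conditions of 3 libraries each, with an exposure of 96 hours: vehicle (also named FGF in the labels), VPA, and VPA+Rapamycin. VPA, valproic acid, is an anti-seizure drug that also inhibits histone deacetylases, and rapamycin inhibits the kinase mTOR. The study's exposure schemes gave VPA together with FGF, the labels state no concentration, the study's text describes more than one VPA concentration and also a shorter exposure than the labels give, and no rapamycin-only condition is analysed here. The labels give every library the genotype WT, while the study describes clones of this line carrying a SOX10 reporter and several organoids pooled for each sample. A legend of the study gives each column of a condition to a different clone. The sample descriptions repeat the same prefixes in every condition, but these do not match the study's clone names. The labels thus tie no library to a named clone, and the reported fits left a pairing by clone out. Their p-values measure the spread between these libraries, and differences between clones cannot be told apart from it.

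IGF ligands drive growth and survival through IGF1R and, in part, INSR, receptor tyrosine kinases that signal to PI3K, AKT and mTOR. Secreted IGFBPs hold the ligands, lengthen their life and limit or localise their action, and proteases that cleave IGFBPs set the ligands free. IGF2R, which is also the cation-independent mannose 6-phosphate receptor, takes up IGF2 for breakdown. Several IGFBPs, among them IGFBP3, IGFBP5 and IGFBP7, are also known as factors secreted by senescent cells.

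The libraries held between 15290436 and 17417478 counts each. Levels below are normalized counts (counts scaled to a common library size), and only levels per kilobase, which are counts scaled by library size (CPM) and divided by the length of the gene model, are compared between genes. All 8 neural progenitor markers and all 7 neuron markers were detected in every library. Summed per-kilobase levels were 586 to 659 for neural progenitor markers in vehicle, 814 to 927 in VPA and 640 to 716 in VPA+Rapamycin, and for neuron markers they were 310 to 542, 283 to 322 and 300.5 to 308. The 7 neural crest markers summed to 105 to 110, 90.7 to 104 and 103 to 110 in the same order, with TFAP2B at 0 in 3 libraries. By edgeR's test with VPA against vehicle, 1 of 8 neural progenitor markers was higher (median log2 fold change 0.02), where 16.4% of all genes were. From VPA to VPA+Rapamycin 2 of 8 were lower (median -0.04), where 3.73% of all genes were. The higher sum in VPA is therefore not a rise of the whole list, and which genes carried it was not tested. The 5 endothelial markers summed to at most 2.23 in any library and the 4 skeletal muscle markers in the tables to at most 1.64, whereas the 4 pluripotency markers summed to 43.3 to 101. In bulk samples, fewer cells of a type and less RNA per cell cannot be told apart.

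In SCOs the IGF binding protein messages were dominated by IGFBP2 and IGFBP5. Per kilobase, the vehicle levels were 141 ± 34.7 for IGFBP2 and 130 ± 57.3 for IGFBP5 (SD, n = 3 libraries, as for every ± below), and the ranges of these genes overlapped. IGFBP4 followed at 37.5 ± 8.69, then IGF1R at 17.3 ± 2.01, IGFBP3 at 11.1 ± 5.21 and IGF2R at 9.32 ± 0.809, of which IGF1R and IGFBP3, and IGFBP3 and IGF2R, overlapped as neighbours. INSR stood at 3.20 ± 0.161 and IGFBP7 at 1.21 ± 0.228. At the bottom of the order were IGF2 at 0.0358 ± 0.0158 and IGFBP6 at 0.0147 ± 0.0254, whose ranges overlapped. In VPA the order differed: IGFBP3 moved from rank 5 to rank 8, below IGF2R, INSR and IGFBP7, and IGFBP6 stood above IGF2. Every pair of neighbours in the VPA order stood apart except IGFBP6 and IGF2. In VPA+Rapamycin the overlapping neighbours were IGFBP3 with IGFBP7 and IGFBP6 with IGF2.

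With VPA, 2 members fell and 2 rose. IGFBP3, the main carrier of IGFs in blood and a factor that restrains growth, fell 6.46-fold, and IGFBP5, which binds to extracellular matrix, fell by 1.27 on the log2 scale. IGFBP7, a matrix-associated protein that binds IGFs weakly, and IGF2, the fetal growth ligand, rose by 1.41 and 2.41 on the log2 scale. Of the 9 members tested against vehicle, 4 passed edgeR's quasi-likelihood test at a Benjamini-Hochberg adjusted p of at most 0.05. Among all 17360 genes tested, 32.1% passed, 16.4% being higher and 15.7% lower in VPA, and the members' count is to be read against these shares. The median log2 fold change of the 9 members was 0.20, against -0.003 over all genes. The libraries of VPA and vehicle stood apart, without overlap, for 5 of the 9 members and for 47.5% of all genes tested.

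IGFBP3 (ENSG00000146674, GRCh38 chromosome 7, 45912245 to 45921874, minus strand) had 1273, 507 and 739 normalized counts in the vehicle libraries, 121, 135 and 137 with VPA, and 246, 76.0 and 173 with VPA+Rapamycin. Every drug-exposed library lay below every vehicle library, and the VPA libraries lay close together. The log2 fold change with VPA was -2.69 ± 0.28 (SE), with an adjusted p of 8.96e-05 in edgeR's quasi-likelihood test, rank 180 among all genes. With VPA+Rapamycin against vehicle it was -2.36 ± 0.39, with an adjusted p of 0.00312 in the same test. Between VPA+Rapamycin and VPA the log2 difference was 0.33 ± 0.27 (edgeR, adjusted p = 0.530), and the VPA+Rapamycin libraries reached both below and above those of VPA. That difference depended on single VPA+Rapamycin libraries: without replicate 1, the highest of them, it was -0.08, and without replicate 2, the lowest of the 9 libraries, it was 0.68 ± 0.19 (edgeR, adjusted p = 0.0395).

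IGFBP5 (ENSG00000115461, chromosome 2, 216672105 to 216695525, minus strand) had 20123, 13301 and 7964 normalized counts with vehicle, 5711, 5960 and 5615 with VPA, and 6870, 5140 and 6104 with VPA+Rapamycin. The vehicle libraries differed from each other by more than the drug-exposed libraries did, and all of them stood above both drug conditions. IGFBP5 changed by -1.27 ± 0.24 on the log2 scale with VPA (edgeR, adjusted p = 0.00271) and by -1.20 ± 0.26 with VPA+Rapamycin against vehicle (edgeR, adjusted p = 0.0105). VPA+Rapamycin and VPA differed by 0.07 ± 0.09 (edgeR, adjusted p = 0.696). Leaving out VPA+Rapamycin replicate 2 took the comparison with vehicle to -1.09, with an adjusted p of 0.0524 in edgeR's test.

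Markers of other cell types were counted too. With VPA against vehicle 5 of 7 neuron markers fell (median log2 fold change -0.64), and 3 of 6 tested neural crest markers fell while 1 rose (median -0.71), by edgeR's test, where 15.7% of all genes fell. From VPA to VPA+Rapamycin 2 of 7 neuron markers rose (median log2 fold change 0.20) and 2 of 6 neural crest markers rose (median 0.69). In each list 0 fell, and 3.01% of all genes rose in that comparison. The part of these markers in the IGFBP3 and IGFBP5 values was not tested.

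The spread between libraries was itself unlike between conditions for these binding proteins. The coefficient of variation of IGFBP3 was 46.8% with vehicle, 6.42% with VPA and 51.6% with VPA+Rapamycin, and that of IGFBP5 was 44.2%, 3.09% and 14.4%. Vehicle replicate 1 held the highest vehicle value of all the IGFBP members and of IGF1R, but not of IGF2, IGF2R or INSR. Without that library the VPA log2 fold changes of IGFBP3 and IGFBP5 were -2.26 and -0.89, and both passed edgeR's test still.

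The RefSeq promoter windows of these members (GRCh38.p14, 250 bases before to 50 after the start of the transcript) are shown because both genes were lower in each drug condition than in vehicle. Capitals mark GGGCGG, the core letters bound by SP1, read on either strand. Of 5 sets of letters searched, the IGFBP3 window (chr7:45921223-45921522, minus strand, printed 5′ to 3′ along the gene) held only these, at -98 and -6 from the start, and the IGFBP5 window (chr2:216695500-216695799, minus strand) held none.
IGFBP3: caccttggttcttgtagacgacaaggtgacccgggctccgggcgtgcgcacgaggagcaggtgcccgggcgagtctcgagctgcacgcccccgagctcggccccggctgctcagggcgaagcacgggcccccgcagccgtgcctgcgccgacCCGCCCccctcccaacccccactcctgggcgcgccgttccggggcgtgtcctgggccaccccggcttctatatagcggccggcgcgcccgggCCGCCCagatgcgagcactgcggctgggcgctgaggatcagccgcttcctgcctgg
IGFBP5: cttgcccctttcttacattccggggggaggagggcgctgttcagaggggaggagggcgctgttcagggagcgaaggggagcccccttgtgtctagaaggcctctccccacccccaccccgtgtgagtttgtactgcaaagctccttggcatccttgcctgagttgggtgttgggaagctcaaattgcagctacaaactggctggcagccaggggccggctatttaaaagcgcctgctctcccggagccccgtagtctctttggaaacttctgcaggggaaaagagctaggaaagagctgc
The letters GGGCGG occur in 45.0% of the 35116 RefSeq promoter windows of this length. The other letters were searched on both strands too. TGANTCA, of the AP-1 factors, is in 7.71% of windows, and GCGNGGGCG, of the EGR factors, which can overlap the SP1 letters, is in 9.43%. TATAAA, the TATA box, is in 11.5%, and the FOXO letters GTAAACA are in 3.42%. The IGFBP3 window had a GC content of 74.7% with 36 CpG dinucleotides and that of IGFBP5 59.0% with 9, against medians of 58.7% and 14 over all windows. RefSeq windows were found for 8 of the 10 members, all but IGF2 and IGFBP7, and none of them held the AP-1 letters. The TATA box letters were found in IGFBP4, at -29, the FOXO letters in IGFBP6, at -186, and the EGR letters in IGF2R, at -166. GGGCGG was not particular to members that passed a test. It was also in windows of IGFBP2, IGFBP4 and IGFBP6, and IGF2R held 6 matches. A match describes letters in a window and is not a measured binding site.

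IGFBP7 (ENSG00000163453, chromosome 4, 57030773 to 57110385, minus strand) rose with VPA and was lower again when rapamycin was added, though the latter call was not stable. It had 45.0, 40.2 and 30.7 normalized counts with vehicle, 97.7, 107 and 106 with VPA, and 59.9, 58.7 and 39.6 with VPA+Rapamycin. The VPA libraries stood apart above both other conditions, which overlapped each other. The log2 fold change was 1.41 ± 0.25 with VPA against vehicle (edgeR, adjusted p = 0.00187) and -0.97 ± 0.23 with VPA+Rapamycin against VPA (edgeR, adjusted p = 0.0167). The call against VPA was lost without VPA replicate 2 or 3 and without VPA+Rapamycin replicate 3, with adjusted p from 0.0505 to 0.0851 in edgeR's test. VPA+Rapamycin against vehicle gave 0.44 ± 0.31 (edgeR, adjusted p = 0.346). The gene shares 396 bases, or 0.497% of its span, with POLR2B on the plus strand, which had a mean count of 3272 per library against 65.6 for IGFBP7. POLR2B itself had a log2 fold change of 0.08 (edgeR, adjusted p = 0.550) with VPA and -0.06 (edgeR, adjusted p = 0.717) with VPA+Rapamycin against VPA. Whether the counting used strand is not given in the sources used here.

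Markers of mesenchyme were also measured. The summed per-kilobase level of the 12 mesenchyme markers was 22.1 to 41.5 in vehicle, 71.6 to 88.1 in VPA and 35.9 to 47.8 in VPA+Rapamycin. All 12 were detected in each VPA library, PRRX1 and DCN were at 0 in 2 vehicle libraries and in 1 VPA+Rapamycin library each, and TWIST1 was at 0 in 1 vehicle library. Of 11 of these markers tested, 3 rose with VPA, where 16.4% of all genes did, and 6 fell when rapamycin was added to VPA, where 3.73% of all genes did, by edgeR's test. Their part in the IGFBP7 values was not tested.

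IGF2 (ENSG00000167244, chromosome 11, 2129112 to 2149603, minus strand) was scarce in every condition. It had 5, 5 and 2 counts in the vehicle libraries, 25, 22 and 22 with VPA, and 29, 13 and 16 with VPA+Rapamycin. All 6 drug-exposed libraries lay above the vehicle libraries. IGF2 changed by 2.41 ± 0.52 on the log2 scale with VPA (edgeR, adjusted p = 0.00517) and by 2.18 ± 0.59 with VPA+Rapamycin against vehicle (edgeR, adjusted p = 0.0257). VPA+Rapamycin and VPA differed by -0.23 ± 0.42 (edgeR, adjusted p = 0.808). The call of VPA+Rapamycin against vehicle was lost without VPA+Rapamycin replicate 1, 2 or 3 or without vehicle replicate 2 or 3, with adjusted p from 0.0520 to 0.136 in edgeR's test.

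Some of the IGF2 counts are uncertain, because 8166 bases, or 39.8% of its span, are shared with the antisense gene IGF2-AS on the plus strand. IGF2-AS had 8, 33 and 17 counts summed over the vehicle, VPA and VPA+Rapamycin libraries, against 12, 69 and 58 for IGF2. Without strand, reads from exon sequence that both genes share cannot be told apart. The shared bases were measured over the whole span, introns included, and the overlap of exons was not measured. H19, the imprinted noncoding RNA that lies 128 kb from IGF2 and is expressed from the opposite parental copy, had 101 ± 56.5, 92.0 ± 45.4 and 50.7 ± 18.1 normalized counts in the vehicle, VPA and VPA+Rapamycin libraries. Its log2 fold change with VPA was -0.15 and did not pass edgeR's test. Neither IGF1 nor INS-IGF2 is among the genes in the tables, so these ligands were not analysed here.

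IGFBP2 and IGFBP4 did not pass the test in any of the 3 comparisons when all libraries were used. IGFBP2 (ENSG00000115457, chromosome 2, 216632828 to 216664436, plus strand), an IGF2-binding protein abundant in neural progenitors, had 14025, 10558 and 8638 normalized counts with vehicle, 13885, 11525 and 13117 with VPA, and 9183, 14274 and 10138 with VPA+Rapamycin. The 3 ranges overlapped. Its log2 fold changes were 0.20 ± 0.15 with VPA (edgeR, adjusted p = 0.332), -0.19 ± 0.12 for VPA+Rapamycin against VPA (edgeR, adjusted p = 0.368) and 0.01 ± 0.19 for VPA+Rapamycin against vehicle (edgeR, adjusted p = 0.981). The first depended on single vehicle libraries, being 0.41 without replicate 1 (edgeR, adjusted p = 0.0103) and 0.06 without replicate 3 (edgeR, adjusted p = 0.713). VPA+Rapamycin against VPA gave -0.41 without VPA+Rapamycin replicate 2 (edgeR, adjusted p = 0.00392) and -0.07 without replicate 1 (edgeR, adjusted p = 0.776).

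IGFBP4 (ENSG00000141753, chromosome 17, 40443461 to 40457731, plus strand), which mostly inhibits IGF action, had 1726, 1206 and 1155 normalized counts with vehicle, 1696, 1701 and 1720 with VPA, and 1515, 1572 and 1469 with VPA+Rapamycin. The VPA libraries were above those of VPA+Rapamycin and overlapped with vehicle only through vehicle replicate 1. The log2 fold changes were 0.31 ± 0.14 with VPA (edgeR, adjusted p = 0.118) and -0.16 ± 0.07 for VPA+Rapamycin against VPA (edgeR, adjusted p = 0.185), and 0.15 ± 0.15 for VPA+Rapamycin against vehicle (edgeR, adjusted p = 0.525). Without vehicle replicate 1 IGFBP4 was 0.52 higher with VPA and 0.35 higher with VPA+Rapamycin than with vehicle, with adjusted p of 0.00106 and 0.0290 in edgeR's test. Without vehicle replicate 2 or 3 these values were 0.23 and 0.21 with VPA, and 0.07 and 0.04 with VPA+Rapamycin, and none of them passed (edgeR, adjusted p from 0.191 to 0.851).

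IGFBP6 (ENSG00000167779, chromosome 12, 53097436 to 53102345, plus strand), which prefers IGF2 as a ligand, was barely detected. It had 1, 0 and 0 counts with vehicle, 6, 2 and 7 with VPA, and 5, 4 and 5 with VPA+Rapamycin, and the filter on low counts removed it from every test. The ratio of the summed levels of VPA to vehicle was 14.3, with a 95% exact interval of 2.20 to 603 that covers counting error only. Fitted without the filter, its adjusted p with VPA was 0.147 in edgeR's test.

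IGFBP2 and IGFBP5 are neighbours on chromosome 2, separated by 7.67 kb and read from opposite strands. The per-kilobase ratio of IGFBP5 to IGFBP2 was 1.06, 0.932 and 0.682 in the vehicle libraries, 0.304, 0.383 and 0.317 in VPA, and 0.554, 0.266 and 0.446 in VPA+Rapamycin. All 6 drug-exposed libraries lay below the vehicle libraries, and the ratio was not tested. IGFBP3 lies 18.6 kb from IGFBP1, which had 3 counts in vehicle replicate 3 and 0 in the other libraries.

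**Figure D1:**
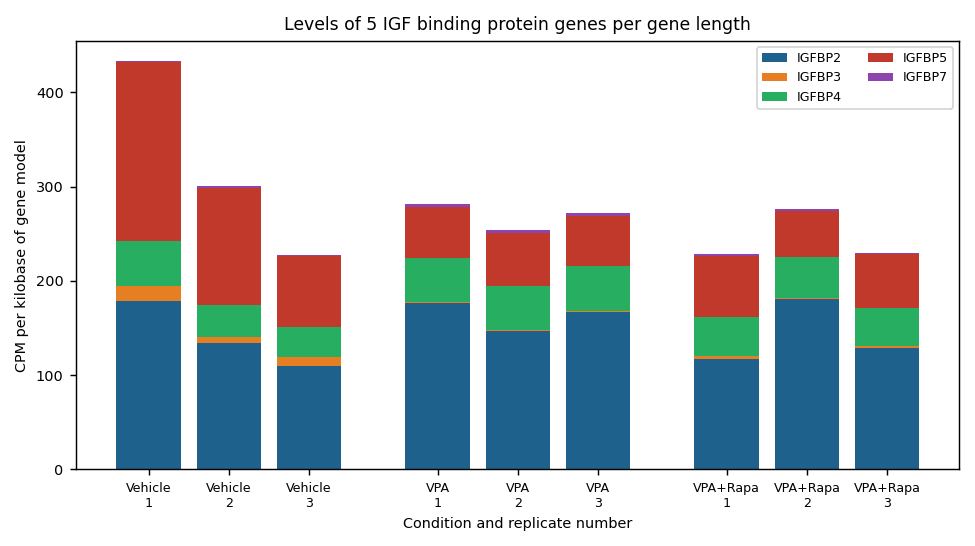
Stacked levels of IGFBP2, IGFBP3, IGFBP4, IGFBP5 and IGFBP7 (CPM per kilobase of gene model, linear axis from 0) in each of the 9 libraries; IGFBP6, at most 0.295 in any library, is left out. The summed level of vehicle replicate 1 (433) is the tallest, and the IGFBP5 segment is shorter in each VPA and VPA+Rapamycin library than in each vehicle library.

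As shares of the summed per-kilobase level of the 6 IGFBP genes, IGFBP2 and IGFBP5 held 44.7% ± 3.59 and 39.4% ± 5.69 in vehicle. In VPA the shares were 60.5% ± 2.63 and 20.2% ± 1.62, and in VPA+Rapamycin 57.6% ± 7.45 and 23.6% ± 5.51. The IGFBP4 share was 12.0% ± 1.73, 17.5% ± 0.914 and 17.2% ± 1.33 in the same order. IGFBP3 made up 3.48%, 0.646% and 0.928%, and IGFBP7 0.390%, 1.21% and 0.676%. The summed level itself was 320.2 ± 104 with vehicle, 269 ± 13.8 with VPA and 245 ± 26.9 with VPA+Rapamycin, and its ranges overlapped, since vehicle replicate 3 was at 227. A 3 against 3 exact permutation test of such single values, two-sided, cannot give a p below 0.1.

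Adding rapamycin to VPA raised 2 receptor messages and lowered IGFBP7. INSR, the insulin receptor, rose by 0.39 on the log2 scale and IGF1R, the main signalling receptor for IGFs, by 0.29. Of the 9 members tested, 3 passed edgeR's test, 2 higher and 1 lower. Of 17317 genes, 6.74% passed, 3.01% higher and 3.73% lower in VPA+Rapamycin than in VPA. The median log2 fold change of the members was -0.04, against 0.004 over all genes. The libraries of VPA+Rapamycin and VPA stood apart for 4 of the 9 members and for 25.5% of all genes tested. These 3 calls were close to the threshold: a single edgeR fit of all 9 libraries, which called 113 genes in all, called 0 members, 3 of which had an unadjusted p under 0.05, with adjusted p of 0.105 for INSR, 0.0953 for IGFBP7 and 0.193 for IGF1R. Each was also lost without VPA replicate 2, with adjusted p from 0.0667 to 0.0784 in edgeR's test. Without VPA+Rapamycin replicate 3 only IGF1R passed.

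INSR (ENSG00000171105, chromosome 19, 7112255 to 7294034, minus strand) had 537, 534 and 584 normalized counts with vehicle, 651, 625 and 663 with VPA, and 858, 796 and 880 with VPA+Rapamycin. The 3 conditions did not overlap, in the order vehicle, VPA, VPA+Rapamycin. Of all genes tested, 47.5% stood apart between vehicle and VPA and 25.5% between VPA and VPA+Rapamycin. The step from vehicle to VPA was 0.22 ± 0.11 on the log2 scale (edgeR, adjusted p = 0.166), and that from VPA to VPA+Rapamycin 0.39 ± 0.09 (edgeR, adjusted p = 0.0120). Against vehicle, INSR rose by 0.60 ± 0.12 with VPA+Rapamycin (edgeR, adjusted p = 0.00586), and this call held whichever single library was left out.

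IGF1R (ENSG00000140443, chromosome 15, 98648539 to 98964530, plus strand) had 4319, 4154 and 3448 normalized counts with vehicle, 3346, 3541 and 3506 with VPA, and 4408, 4112 and 4182 with VPA+Rapamycin. The VPA+Rapamycin libraries stood above those of VPA and overlapped with vehicle. IGF1R changed by 0.29 ± 0.07 from VPA to VPA+Rapamycin (edgeR, adjusted p = 0.0161). With VPA against vehicle it was -0.21 ± 0.11 (edgeR, adjusted p = 0.154), a value that passed at -0.29 without vehicle replicate 3 (edgeR, adjusted p = 0.0144). VPA+Rapamycin against vehicle gave 0.08 ± 0.11 (edgeR, adjusted p = 0.640). The call against VPA was lost also without VPA replicate 1 and without VPA+Rapamycin replicate 1, with adjusted p of 0.0911 and 0.0517 in edgeR's test.

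IGF2R (ENSG00000197081, chromosome 6, 159969099 to 160113507, plus strand) had 2747, 2985 and 2508 normalized counts with vehicle, 2946, 3199 and 3138 with VPA, and 3252, 2757 and 2986 with VPA+Rapamycin. The ranges overlapped in all 3 comparisons. Its log2 fold changes were 0.16 ± 0.10 with VPA (edgeR, adjusted p = 0.243), -0.04 ± 0.08 for VPA+Rapamycin against VPA (edgeR, adjusted p = 0.802) and 0.12 ± 0.11 for VPA+Rapamycin against vehicle (edgeR, adjusted p = 0.492).

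The per-kilobase ratio of IGF1R to INSR, which sets out the balance of the receptor messages, was 6.02, 5.83 and 4.43 in vehicle, 3.85, 4.25 and 3.96 in VPA, and 3.85, 3.87 and 3.56 in VPA+Rapamycin. Every vehicle library lay above every drug-exposed library, while VPA and VPA+Rapamycin overlapped. This ratio was not tested, and 47.5% of all genes stood apart between vehicle and VPA and 38.5% between vehicle and VPA+Rapamycin. The promoter windows of INSR (chr19:7294365-7294664, minus strand) and IGF1R (chr15:98648289-98648588, plus strand) are shown because these are the receptor genes that were higher with rapamycin. With GGGCGG on either strand again in capitals, INSR held 4 matches, of which those at -97, -92 and -87 overlap, and the last is at -77. IGF1R held 2 matches, at -205 and -192.
INSR: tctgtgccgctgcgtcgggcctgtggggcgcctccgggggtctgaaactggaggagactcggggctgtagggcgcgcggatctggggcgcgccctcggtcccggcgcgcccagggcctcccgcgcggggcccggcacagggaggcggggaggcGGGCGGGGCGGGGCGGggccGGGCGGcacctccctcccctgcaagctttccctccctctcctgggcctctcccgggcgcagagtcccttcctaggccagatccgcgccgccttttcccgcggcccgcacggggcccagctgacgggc
IGF1R: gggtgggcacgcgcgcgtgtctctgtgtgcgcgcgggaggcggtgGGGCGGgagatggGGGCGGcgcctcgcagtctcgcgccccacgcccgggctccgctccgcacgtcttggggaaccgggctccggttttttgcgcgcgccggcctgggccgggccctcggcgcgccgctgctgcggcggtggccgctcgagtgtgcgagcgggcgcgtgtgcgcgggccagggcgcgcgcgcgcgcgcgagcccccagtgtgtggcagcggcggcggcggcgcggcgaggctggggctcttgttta
The GC content of these windows was 78.3% and 79.7%, with 36 and 55 CpG dinucleotides, so they, like IGFBP3, are richer in GC than the IGFBP5 window.

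**Figure D2:**
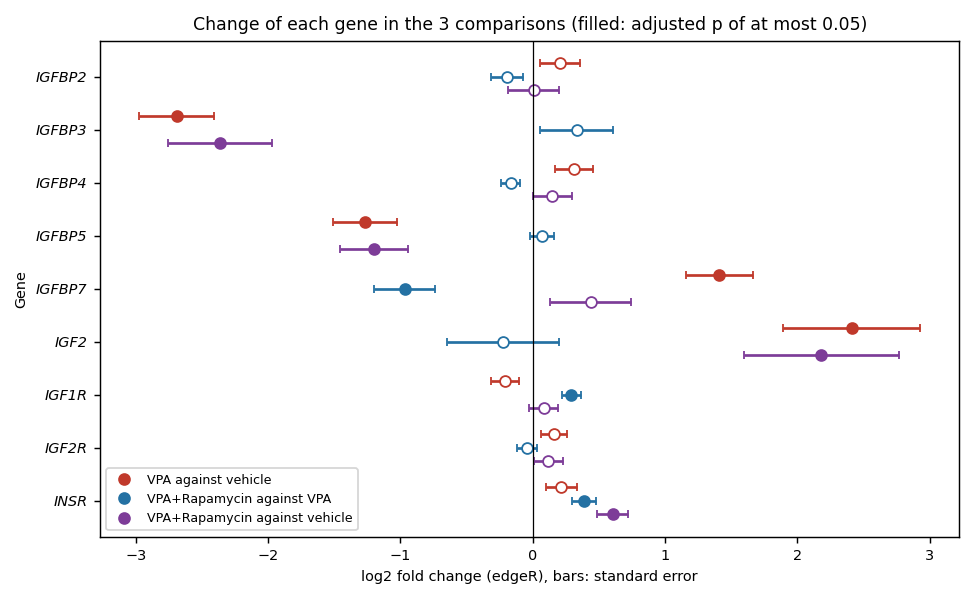
Log2 fold changes (points) with standard errors (bars) of the 9 tested genes in the 3 comparisons; filled points had an adjusted p of at most 0.05 in edgeR's quasi-likelihood test. IGFBP3 and IGFBP5 lie left of 0 and IGF2 right of 0 in both comparisons with vehicle, and in the comparison of VPA+Rapamycin with VPA the filled points are IGFBP7, IGF1R and INSR.

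Set against vehicle, VPA+Rapamycin left 4 of 9 tested members past the threshold: IGFBP3 and IGFBP5 lower, and IGF2 and INSR higher. Among all 17383 genes tested, 19% passed, 9.81% higher and 9.22% lower. The members' median log2 fold change was 0.12, against -0.001 over all genes. The libraries of these conditions stood apart for 4 of the 9 members and for 38.5% of all genes tested. This comparison shares its vehicle libraries with that of VPA and its VPA+Rapamycin libraries with the other, so the 3 sets of values are not independent.

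The rest of the pathway was taken from 7 lists with 58 genes, of which 52 are in the tables. Against vehicle, 9 of the 46 tested rose and 9 fell with VPA, with a median log2 fold change of -0.05, where 16.4% of all genes were higher and 15.7% lower. From VPA to VPA+Rapamycin 3 of 46 rose and 4 fell, with a median of -0.08, where 3.01% of all genes were higher and 3.73% lower. From vehicle to VPA+Rapamycin 6 of 45 rose and 5 fell, with a median of -0.10, where 9.81% and 9.22% of all genes did. The counts for single lists below are to be read against these shares.

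Among 6 tested proteases that cleave IGFBPs and their inhibitors, 1 rose and 3 fell with VPA, against 16.4% and 15.7% of all genes. HTRA1, a secreted serine protease, rose by 0.78 ± 0.13 on the log2 scale (edgeR, adjusted p = 0.00142). ADAM12, a metalloprotease that can cut IGFBP3 and IGFBP5, fell by 0.68 (edgeR, adjusted p = 0.0101), and STC1, an inhibitor of PAPPA, by 0.64 (edgeR, adjusted p = 0.00455). PAPPA, the main protease of IGFBP4, had 34, 25 and 76 counts with vehicle, 12, 16 and 12 with VPA, and 40, 26 and 88 with VPA+Rapamycin. Its log2 fold change was -1.82 ± 0.48 with VPA (edgeR, adjusted p = 0.0136) and 1.97 ± 0.46 from VPA to VPA+Rapamycin (edgeR, adjusted p = 0.0138), and the VPA libraries stood below all others.

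Of 7 tested genes for other proteins with an IGFBP domain, 3 rose and 1 fell with VPA, against 16.4% and 15.7% of all genes, and 1 rose and 2 fell from VPA to VPA+Rapamycin, against 3.01% and 3.73%. CYR61, a matrix signalling protein, had 702, 549 and 530 counts with vehicle, 2462, 1603 and 2419 with VPA, and 565, 440 and 395 with VPA+Rapamycin. Its log2 fold changes were 1.78 ± 0.16 (edgeR, adjusted p = 3.00e-05) and then -2.18 ± 0.13 (edgeR, adjusted p = 5.60e-09). NOV rose by 1.73 with VPA (edgeR, adjusted p = 0.00616) from 22, 9 and 13 counts in vehicle. KAZALD1 rose by 1.48 (edgeR, adjusted p = 0.0385) from 25, 5 and 15 counts. CRIM1, a membrane protein, fell by 0.47 with VPA and rose by 0.43 from VPA to VPA+Rapamycin. CTGF fell by 0.40 in the latter comparison, close to the threshold (edgeR, adjusted p = 0.0491).

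IGFBPL1, an IGFBP-like secreted protein, was expressed at 159 ± 31.2, 185 ± 10.8 and 148 ± 11.9 per kilobase in vehicle, VPA and VPA+Rapamycin. It fell by 0.32 ± 0.08 on the log2 scale from VPA to VPA+Rapamycin (edgeR, adjusted p = 0.0198). INSRR, the insulin receptor-related receptor, rose by 2.28 ± 0.50 with VPA (edgeR, adjusted p = 0.00587) from 4, 3 and 5 counts in vehicle to 24, 20 and 19. Of the IGF2 mRNA-binding proteins, IGF2BP2 fell by 0.47 and IGF2BP3 by 0.44 with VPA.

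Of 23 tested adaptors and PI3K-AKT relay genes, 2 rose and 3 fell with VPA, where 32.1% of all genes passed in either direction. GRB14, an adaptor that inhibits the insulin receptor, rose by 3.31 ± 0.53 on the log2 scale (edgeR, adjusted p = 0.00103) from 7, 2 and 6 counts in vehicle to 83, 33 and 44 in VPA, with 18, 28 and 21 in VPA+Rapamycin. FOXO6, a forkhead transcription factor, rose by 1.06, whereas PIK3CA, a catalytic subunit of PI3K, fell by 0.49. From VPA to VPA+Rapamycin PIK3R3, a regulatory subunit of PI3K, fell by 0.31. Of the 4 genes of the mannose 6-phosphate route, GNPTAB and NAGPA, enzymes that make the tag IGF2R recognises on its cargo, rose by 0.68 and 0.90 with VPA.

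**Figure D3:**
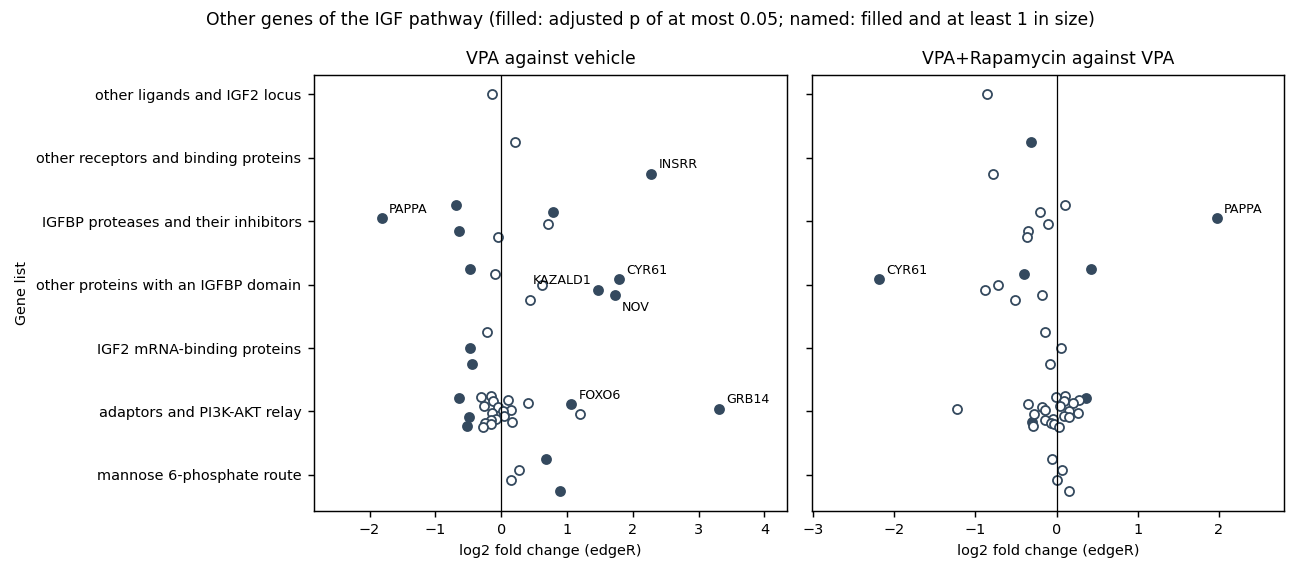
Log2 fold changes of the other IGF pathway genes by list, for VPA against vehicle and for VPA+Rapamycin against VPA; each point is a gene, filled where the adjusted p was at most 0.05 in edgeR's test, and named where filled and at least 1 in size. CYR61 and PAPPA have filled points of opposite sign in the panels.

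For each member with a mean of at least 50 counts, likeness was measured as Pearson's r of log2 normalized counts over the 9 libraries, among 13391 genes, without a test. IGFBP3 was most like CELF1 (0.983), ZNF561 and BAZ2A, and the genes most like IGFBP5 included CPSF7 (0.981) and C8orf82. IGFBP7 was most like SLC30A10 (0.993), GGCT and DAP. IGFBP2 went with HDHD5 (0.967), PKM and HK1, the latter pair being enzymes of glycolysis, and IGFBP4 with ZNF771 (0.983), SUMF2 and OST4. IGF1R was most like TEP1 (0.970), KRTCAP2 and SNRNP200, INSR most like ZC3H10 (0.974), GTF2IP13 and L3MBTL3, and those most like IGF2R included AC240274.1 (0.952) and C1orf216. Among the members, the highest value was that of IGFBP3 with IGFBP5 (0.893), followed by IGFBP4 with IGFBP7 (0.768) and IGFBP2 with IGFBP4 (0.738). The points share their libraries, and the conditions make up part of each value. Genes outside the members were named as the highest among 13391 over 9 libraries, and that choice by itself favours high values.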

How the data were processed

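Poly-T selected mRNA of 9 SCO libraries was sequenced by the authors. The submitters' processing notes name HISAT2 2.0.5 and featureCounts 1.5.0-p3, and gene coordinates are on GRCh38. Tables, 1 for each pair of conditions, hold raw counts per gene as deposited by the authors, and every gene listed had 2 or more reads in its table. The deposited signal columns are counts that the authors divided by size factors, and the deposited FPKM values scale counts by gene length and depth. The deposited log2 fold changes and p-values hold the authors' own comparisons from DESeq2. None of these columns entered the results, gene length excepted.

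Totals were 15290436 to 17417478 counts per library. A count of 3, the limit that a count of 0 allows, equals a CPM of 0.170 to 0.198. Intervals cover counting error only.

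Counts were tested within each table with edgeR 4.0.16 in R 4.3.3 (TMM, filterByExpr, quasi-likelihood F test, Benjamini-Hochberg adjustment over all genes tested, threshold 0.05), after checks on simulated data. In data simulated for VPA against vehicle, 59% of log2 changes of 1 and 92% of those of 2 were recovered. Of the calls 8.5% were false, above the threshold of 0.05. The simulated data held fewer changed genes than were called here. Normalized counts used TMM factors over all 9 libraries. Exact permutation tests used scipy 1.17.1. Alternatives were DESeq2 1.42.0, upper-quartile scaling, no filter, at least 10 counts in every library, a single fit of all 9 libraries, a replicate block, a minimum absolute log2 fold change of 1, and leaving out each library. The RefSeq promoter table gave sequences.

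All 10 members were named in each comparison. Of each pathway list the genes that passed were named, at most 4 by smallest p, and H19, IGF1, INS-IGF2, IGFBP1 and IGFBPL1 in any case. Genes overlapping a member were named above 10% of its mean count. PAPPA, INSRR, GRB14 and CYR61 were given per library after their values were seen. The members and lists were chosen with earlier results of these data known. A few genes that these rules would name are not reported here.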

Additional observations from a re-analysis of the deposited data

How the results depend on the processing

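With VPA against vehicle, the calls of IGFBP3, IGFBP5, IGFBP7 and IGF2 held under every alternative that tested them; IGF2 was not tested where at least 10 counts were required in every library. Leaving out 1 library at a time gave 4 to 6 members called and 3390 to 6710 genes. For VPA+Rapamycin against VPA it gave 0 to 5 members and 472 to 1203 genes. For VPA+Rapamycin against vehicle it gave 2 to 5 members and 1295 to 4314 genes. Requiring a minimum log2 change of 1 in either direction left 1966, 188 and 1121 genes in the 3 comparisons and 0 members for VPA+Rapamycin against VPA. The single fit of all 9 libraries, which estimates 1 spread for all conditions, called 113 genes and 0 members there, although 3 members had an unadjusted p under 0.05 in edgeR, as they did without VPA replicate 2. DESeq2, upper-quartile scaling and no filter called the same numbers of members as the reported fits, 4, 3 and 4. Direction turned only when 1 library was left out, and no turned value passed the test. For VPA+Rapamycin against VPA the range over these fits was -0.034 to 0.172 for IGFBP5 and -0.0788 to 0.678 for IGFBP3, both lowest without VPA+Rapamycin replicate 1, and -0.628 to 0.0054 for IGF2 and -0.106 to 0.0132 for IGF2R, both highest without replicate 2. For VPA+Rapamycin against vehicle it was -0.201 to 0.210 for IGFBP2, at -0.0274 without vehicle replicate 2, -0.140 without vehicle replicate 3 and lowest without VPA+Rapamycin replicate 2, and -0.0067 to 0.143 for IGF1R, lowest without vehicle replicate 3. The cause was not tested. Libraries with the same replicate number did not deviate together in every pair (correlations of deviations -0.151 to 0.330 over 13391 genes). Libraries with unlike numbers were not compared, so these values cannot decide whether the replicate numbers pair the libraries. The study's legend, with a different clone for each column of a condition, makes a pairing by clone a likely part of the design. The reported fits left the pairing out, and the replicate block is given as an alternative. With a replicate block 4965, 1244 and 4040 genes and 4, 3 and 4 members were called, and no call of a member changed. With 3 libraries a condition, IGF2 and IGFBP6, at a mean of 15.4 and 3.33 counts, are the members whose values depth limits most.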
